A study of Homo sapiens with 6 samples.

Results

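ZNF852 is a gene of chromosome 3 that encodes a C2H2 zinc finger protein, and it lies in a row of 8 such genes. In chromosome order these are ZNF445, ZNF852, ZKSCAN7, ZNF660, ZNF197, ZNF35, ZNF502 and ZNF501. ZNF852 was picked because its level was known to be high in the long-term acid group, and the other genes because they are its neighbours. Of the 8 genes, 7 had a probe set that names a single gene, out of 33616 such genes on the array, and 6 passed the filter on low values, out of 21070. ZNF197 had no such probe set, and the brightest of the probe sets of ZNF502 stayed under the filter.

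The study measured RNA on 6 arrays from LP-1, an established human multiple myeloma line that stands for malignant plasma cells, with 2 arrays per group labelled as biological replicates. Control cells (Ctrl) were kept at an extracellular pH of 7.4 with a time label of 9 months. Short-term acid cells (SA) were kept at pH 6.8 with a time label of 2 weeks, and long-term acid cells (LA) at pH 6.8 with a time label of 9 months. The sample descriptions give 2 to 3 weeks for SA and 8 to 10 weeks for LA, while the design text gives 2 to 4 weeks and 8 to 10 months. SA therefore differs from Ctrl in time in culture as well as in pH, and those factors cannot be told apart in that comparison. The labels do not say whether the LA cells were a mixed culture or grew from a few cells.

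The values are taken to be log2 values made by RMA, so a difference of 1 is a change of 2 times if the base is 2. The median over all probe sets was 3.77, and a gene was kept for testing when its mean was at or above it. All 8 plasma cell markers looked at were kept, at means from 11.38 (SDC1) to 19.91 (JCHAIN). Markers of T and NK cells lay between 2.60 and 5.40 and those of monocytes between 2.86 and 4.64, and red cell and platelet markers between 4.02 and 5.09. Of 6 stromal and endothelial markers, 1 was bright, PECAM1 at 11.30, a gene that plasma cells also express. The mean level over the plasma cell list was 15.32 to 15.33 on the Ctrl arrays, 15.61 to 15.70 on the SA arrays and 15.35 to 15.41 on the LA arrays. Single markers differed more, with TNFRSF17 at 14.22 in Ctrl, 16.51 in SA and 13.82 in LA, CD38 at 17.44, 17.45 and 19.09, and SDC1 at 11.80, 11.27 and 11.06.

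C2H2 zinc finger proteins bind DNA through strings of small zinc-holding loops, and they form the largest family of human transcription factors. Many carry a KRAB domain, which recruits the corepressor TRIM28 and, through it, the histone methyltransferase SETDB1 and heterochromatin proteins, so that the bound site is silenced. The genes arose by repeated local duplication and often stand in rows on a chromosome, which means that a row can share both sequence and chromatin state. In this row, ZNF445 has a KRAB and a SCAN domain and keeps the parental methylation of imprinted genes, and ZKSCAN7 and ZNF197 also carry SCAN and KRAB domains. ZNF501 has been tied to the structure of the Golgi. ZNF852 itself is little characterised.

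The promoters are shown because they hold a feature that the choice of genes did not use. RefSeq windows on GRCh38.p14, from 250 bases before to 50 bases after the start of the gene, were found for 7 of the 8 genes, and ZNF852 was not matched. The word of 10 bases shared by most of them was TTCCTAGAGA, which stood in 5 of these 7 windows, on the strand of the gene in each. It was picked as the word these windows share, so its frequency among them is a description. On either strand it was found in 26 of all 35116 windows of the same length, or 0.074%, and in 1 of 613 windows of zinc finger genes outside the row, or 0.163%. The stretches follow 5′ to 3′ on the strand of the gene, with the element in capitals.
ZNF445, chr3:44477691-44477740, minus strand: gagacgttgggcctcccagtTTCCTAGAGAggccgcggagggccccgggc
ZNF197, chr3:44624954-44625003, plus strand: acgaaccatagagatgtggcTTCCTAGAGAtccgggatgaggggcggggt
ZNF35, chr3:44648654-44648703, plus strand: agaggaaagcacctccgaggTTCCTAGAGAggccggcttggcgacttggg
ZNF502, chr3:44712563-44712612, plus strand: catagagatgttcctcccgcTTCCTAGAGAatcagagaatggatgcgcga
ZNF501, chr3:44729535-44729584, plus strand: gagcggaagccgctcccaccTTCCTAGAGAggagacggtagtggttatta
The element began 50 bases before the start in ZNF445, 58 in ZNF35, 62 in ZNF197, 77 in ZNF502 and 80 in ZNF501. The windows of ZKSCAN7 and ZNF660 did not hold these letters. Across the 7 windows the share of G and C was 55.7% to 69.7% and the number of CpG pairs 14 to 32.

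ZNF852 was much higher in LA cells than in the other groups. On its brightest probe set it read 7.55 and 7.74 on the Ctrl arrays, 7.0 and 6.88 on the SA arrays and 12.05 and 11.76 on the LA arrays. Both LA arrays lay far above the other 4, and both SA arrays lay slightly below both Ctrl arrays. The group levels were 7.65 ± 0.13 in Ctrl, 6.94 ± 0.08 in SA and 11.90 ± 0.21 in LA (mean log2 value ± SD, n = 2 each). LA minus Ctrl was 4.26 ± 0.17 (log2 difference ± SE), or 19.1 times, and LA minus SA was 4.96 ± 0.17, or 31.2 times. SA minus Ctrl was -0.71 ± 0.17. The gene was chosen on these values, so no p-value is given for them. In LA minus Ctrl, 6 of the 21070 genes kept had a higher difference.

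**Figure D1:**
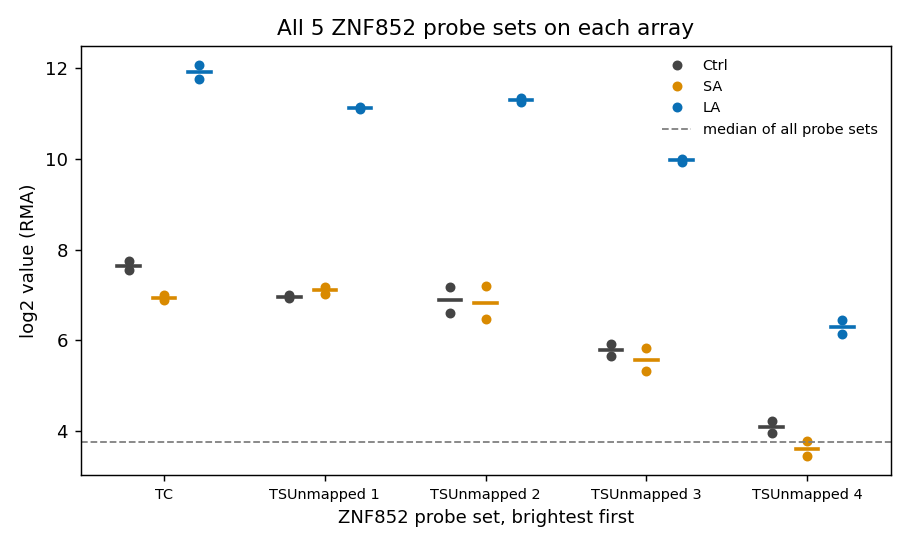
Log2 RMA value (y axis) of each of the 5 ZNF852 probe sets (x axis, brightest first) on the 6 arrays. Points are arrays, short lines are group means of 2 arrays, and the dashed line is the median of all probe sets, 3.77. The LA points stand apart from the Ctrl and SA points on every probe set, and the order of Ctrl and SA varies.

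All 5 probe sets of ZNF852 showed the high LA level. In each of them both LA arrays lay above all 4 other arrays, as they did on 10.7% of all 135574 probe sets. The gene was chosen for its high LA level, so nothing is read from this count. Of the 5, 1 has an identifier that starts with TC, and it is the brightest. The other 4 start with TSUnmapped, and the files do not say whether they share probes with it or with each other, so they are not taken as independent measurements. The next brightest read 6.99 and 6.93 in Ctrl, 7.18 and 7.02 in SA and 11.13 and 11.10 in LA. The third read 6.60 and 7.17 in Ctrl, 7.20 and 6.47 in SA and 11.34 and 11.25 in LA. In both of these the LA arrays stood far above every other array, while Ctrl and SA overlapped or lay close together. The fourth was at 5.66 and 5.92 in Ctrl, 5.83 and 5.32 in SA and 9.99 and 9.93 in LA. The dimmest was at 4.23 and 3.96, at 3.46 and 3.78, and at 6.44 and 6.14, with its Ctrl and SA values near the median of the array. LA minus Ctrl ranged from 4.16 to 4.41 on the 4 brighter probe sets and was 2.19 on the dimmest.

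The small SA difference of ZNF852 was not the same on its probe sets. SA minus Ctrl ran from -0.71 on the brightest to 0.14 on the next. SA lay below Ctrl without overlap on 2 of the 5 and above it without overlap on 1, and the groups overlapped on 2. The matching share over all probe sets was not counted, so these counts only describe the 5 probe sets. The level order LA above Ctrl held on all 5, and the order of Ctrl and SA did not hold across them.

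The neighbours did not follow ZNF852 in size. LA against Ctrl sets long culture at the low pH beside culture with the same time label at the normal pH. Of the 7 neighbours, 5 could be tested, and 0 of them were called by limma at an adjusted p under 0.05 with p-values adjusted over 21070 genes. An unadjusted p under 0.05 was found for 1 of the 5, as for 20% of all genes. The background was 3.2% of genes called, or 1.32% with replicate number as a block, so a count of 0 among 5 is near it. Their median difference was 0.14, against -0.03 over all genes kept.

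ZNF445, on the near side of ZNF852, read 5.26 and 5.14 in Ctrl, 4.28 and 5.01 in SA and 6.39 and 5.83 in LA. Both LA arrays were above the Ctrl arrays and both SA arrays below them, so its order matches that of the brightest ZNF852 probe set. LA minus Ctrl was 0.91 ± 0.29, with a 95% interval of 0.19 to 1.62, and it missed the threshold (limma adjusted p = 0.168). That interval ends well under the difference of ZNF852. LA minus SA was 1.46 ± 0.29 and passed (limma adjusted p = 0.0239), where the background is 15.9% of genes called. It was also called with replicate number as a block (adjusted p = 0.0302), where the background is 8.65%. It was the 1 neighbour called in that comparison, and it lost the call without SA replicate 1, at 1.10 (adjusted p = 0.0505), and without LA replicate 1, at 1.19 (adjusted p = 0.0884).

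ZKSCAN7, on the far side, read 4.96 and 4.98 in Ctrl, 4.91 and 4.55 in SA and 5.20 and 5.47 in LA. The order of the groups was again LA, Ctrl, SA without overlap, over a much smaller range. LA minus Ctrl was 0.36 ± 0.18 (95% interval -0.08 to 0.81, limma adjusted p = 0.33), and LA minus SA was 0.61 ± 0.18 (limma adjusted p = 0.0756). Its 8 further probe sets were dim, with LA minus Ctrl from -0.10 to 0.21, so these values do not settle whether the gene differs.

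**Figure D2:**
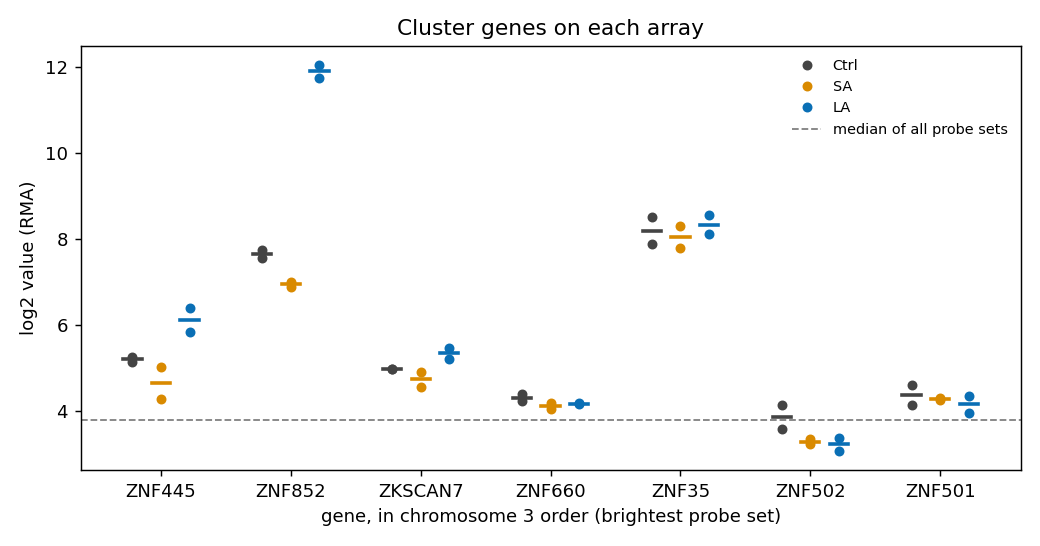
Log2 RMA value (y axis) of the brightest probe set of each of the 7 measured genes, in chromosome order (x axis). Points are arrays, short lines are group means of 2 arrays, and the dashed line is the median of all probe sets, 3.77. Only the LA points of ZNF852 stand far from the other points of their gene, and heights are not compared between genes.

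The genes further along the row showed no difference that passed. ZNF660 read 4.38 and 4.22 in Ctrl, 4.03 and 4.18 in SA and 4.15 and 4.17 in LA, close to the background of the array. Its LA minus Ctrl was -0.14 ± 0.14, with a 95% interval of -0.49 to 0.20 (limma adjusted p = 0.636). All 6 arrays lay close together. On its brightest probe set ZNF35 read 7.88 and 8.51 in Ctrl, 8.30 and 7.79 in SA and 8.55 and 8.12 in LA. All 3 groups overlapped there. LA minus Ctrl was 0.14 ± 0.29 (95% interval -0.58 to 0.85, limma adjusted p = 0.85). Over all 7 of its probe sets LA minus Ctrl ran from -0.24 to 0.33 and SA minus Ctrl from -0.63 to 0.31. Its TC probe set, which is dimmer, read 5.15 and 5.75 in Ctrl, 4.84 and 4.81 in SA and 5.91 and 5.34 in LA. On it SA lay below both other groups, with SA minus Ctrl at -0.63 and LA minus SA at 0.80. Neither was called when only TC probe sets were used (limma adjusted p = 0.18 and 0.104).

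On its brightest probe set ZNF501 read 4.59 and 4.12 in Ctrl, 4.25 and 4.29 in SA and 3.95 and 4.35 in LA. All groups overlapped there. LA minus Ctrl was -0.20 ± 0.22 (95% interval -0.73 to 0.33, limma adjusted p = 0.665). Over all 6 of its probe sets SA minus Ctrl ran from -0.71 to -0.08 and LA minus Ctrl from -0.46 to -0.18. SA lay below Ctrl without overlap on 5 of the 6, and the matching share over all probe sets was not counted. Only 2 of the 6 were above the median of all probe sets. On the TC probe set SA minus Ctrl was -0.22 and LA minus Ctrl -0.18, and neither was called (limma adjusted p = 0.33 and 0.518). ZNF502, under the filter, read 4.12 and 3.57 in Ctrl, 3.23 and 3.33 in SA and 3.06 and 3.37 in LA, and it was not tested. At these levels near the background, a change of a rare transcript may not be detectable. Taking all 33 probe sets of the 6 measured neighbours, LA minus Ctrl ran from -0.63 to 0.91, and on 3 of them both LA arrays lay above the other 4, as they did on 10.7% of all 135574 probe sets.

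SA against Ctrl sets a short stay at the low pH beside the normal pH. Of the 5 neighbours tested, 0 were called by limma at an adjusted p under 0.05 and 0 had an unadjusted p under 0.05. Of all genes 14.8% were called, or 6.39% with the block, and 30.8% had an unadjusted p under 0.05. All 5 differences were negative and small. They ran from -0.56 ± 0.29 in ZNF445 (limma adjusted p = 0.263) to -0.08 ± 0.22 in ZNF501 (limma adjusted p = 0.839), with a median of -0.20 against -0.04 over all genes kept. SA minus Ctrl was -0.24 ± 0.18 in ZKSCAN7, -0.20 ± 0.14 in ZNF660 and -0.15 ± 0.29 in ZNF35. Both this comparison and LA minus Ctrl use the same Ctrl arrays, so they are not independent. For LA minus SA the remaining 4 neighbours ran from -0.12 in ZNF501 to 0.61 in ZKSCAN7 and were not called.

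Beyond the row, the gene next to ZNF445 rose too. The 10 nearest protein-coding genes on each side were taken, and 13 of these 20 could be tested. TCAIM, whose name stands for T cell activation inhibitor, mitochondrial, is the last of the genes before ZNF445. It read 10.27 and 10.24 in Ctrl, 10.27 and 10.10 in SA and 11.79 and 11.90 in LA. Both LA arrays were above all others, and Ctrl and SA overlapped. LA minus Ctrl was 1.59 ± 0.14, or 3.00 times (95% interval 1.24 to 1.93, limma adjusted p = 0.00684), and LA minus SA was 1.66 ± 0.14 (limma adjusted p = 0.00169). SA minus Ctrl was -0.07 ± 0.14 (limma adjusted p = 0.78). TCAIM is measured by 1 probe set, and its promoter windows do not hold the element described above.

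Read along the chromosome, LA minus Ctrl was 1.59 in TCAIM, 0.91 in ZNF445, 4.26 in ZNF852 and 0.36 in ZKSCAN7. On the outer side of TCAIM, TOPAZ1 was under the filter, and ABHD5, a lipase coactivator, was at -1.03 ± 0.47 (limma adjusted p = 0.292). Of the transcripts within the row that do not code for protein, the pseudogene EI24P3 stayed under the filter, at mean levels of 3.20 in Ctrl, 3.15 in SA and 3.06 in LA. The pseudogene MPRIPP1 was at 6.73 in Ctrl, 5.95 in SA and 6.22 in LA, and the antisense RNA ZNF197-AS1 at 3.87, 3.93 and 3.88. These 3 were named after their values were seen.

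**Figure D3:**
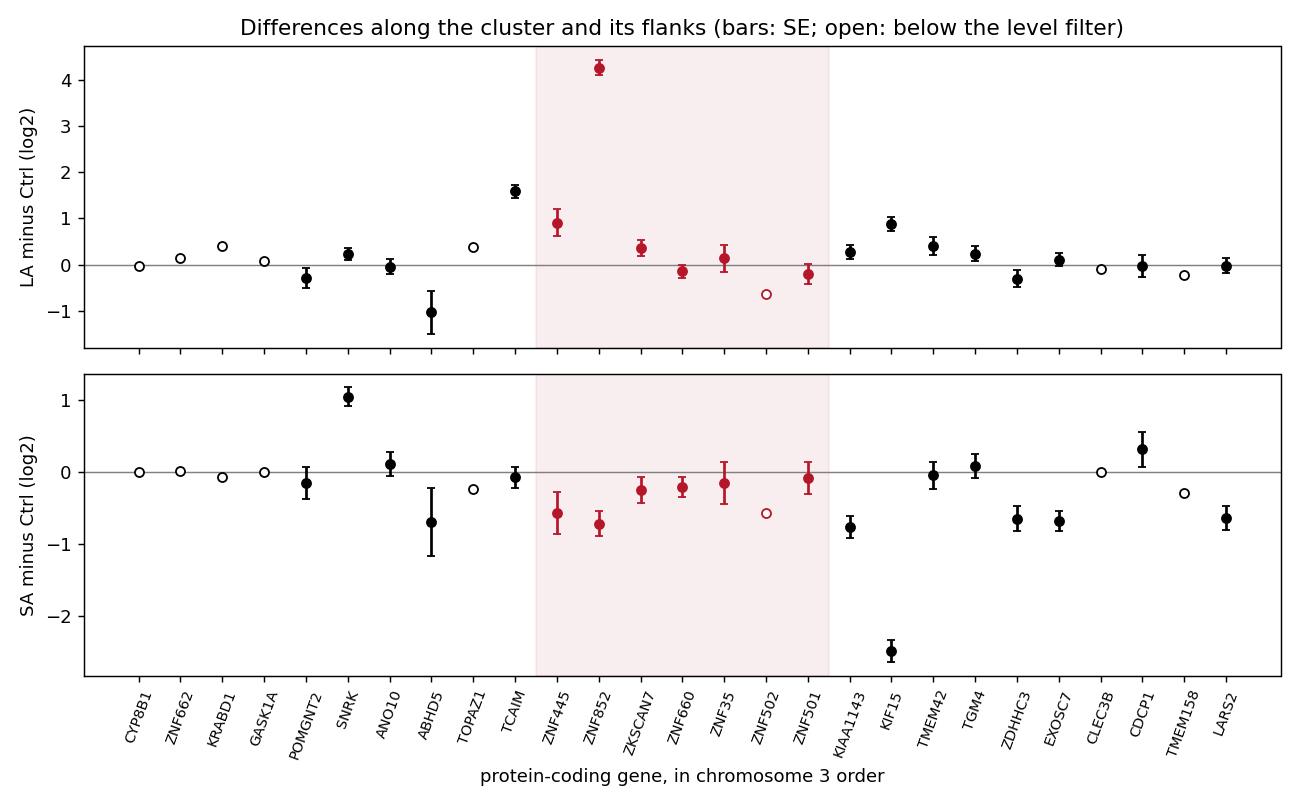
LA minus Ctrl (upper) and SA minus Ctrl (lower), as log2 differences on the y axis, for the 7 measured genes of the row (red, shaded) and the 10 protein-coding genes on each side (black), in chromosome order on the x axis. Bars are standard errors from limma, and open points are genes under the filter, which have none. ZNF852 at 4.26 and TCAIM at 1.59 stand highest in the upper panel, and KIF15 at -2.48 lowest in the lower one.

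Among the other flanking genes, KIF15, a spindle kinesin, moved most. On its brightest probe set it read 10.83 and 10.88 in Ctrl, 8.34 and 8.42 in SA and 11.87 and 11.60 in LA. It fell in SA minus Ctrl, at -2.48 ± 0.15 (limma adjusted p = 0.00162). It rose in LA minus Ctrl by 0.88 ± 0.15 (limma adjusted p = 0.0402), a call lost with replicate number as a block (adjusted p = 0.162) and without any 1 of the 6 arrays (0.75 to 1.01, adjusted p from 0.054 to 0.237). In LA minus SA it was higher by 3.36 ± 0.15. Over all KIF15 probe sets, SA minus Ctrl ran from -2.48 to -0.19 and LA minus Ctrl from 0.03 to 0.96. Its TC probe set was at -1.73 and 0.73 in these comparisons. SNRK, a kinase related to AMPK, was the 1 flanking gene that rose in SA, by 1.05 ± 0.13 (limma adjusted p = 0.00689). KIAA1143 fell by 0.76 ± 0.15 in SA and EXOSC7, a subunit of the RNA exosome, by 0.68 ± 0.14 (limma adjusted p = 0.0268 and 0.0276); both calls were lost with the block, at 0.104 and 0.128, and without any 1 of the Ctrl or SA arrays, EXOSC7 also without either LA array. In all, 2 of 13 flanking genes were higher and 0 lower in LA minus Ctrl, against 3.2% of all genes called. In SA minus Ctrl 1 was higher and 3 lower, against 14.8%, and in LA minus SA 4 were higher and 1 lower, against 15.9%. The flanking genes all code for protein, unlike all genes. Of the protein-coding genes of chromosome 3, 6.02% were called in LA minus Ctrl, 21.4% in SA minus Ctrl and 30.7% in LA minus SA.

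Over chromosome 3 as a whole, 664 protein-coding genes were tested. Their median LA minus Ctrl was 0.06, with 27 higher and 13 lower, which is 6.02% called against 3.2% of all genes. Their median SA minus Ctrl was -0.09, with 55 higher and 87 lower, or 21.4% against 14.8%. Their median LA minus SA was 0.14, with 137 higher and 67 lower, or 30.7% against 15.9%. These shares are of unlike sets, since all genes include genes that do not code for protein. With the filter set 1 log2 unit higher, 882 of 14612 genes of any kind were called in LA minus Ctrl. In SA minus Ctrl 3414 of them were called, and in LA minus SA 3516. Whether chromosome 3 differs from the other chromosomes was not tested. In LA minus Ctrl, ZNF852 had the second highest difference among them, after the chemokine receptor CCR1 at 5.76, a gene named here after its value was seen. Gene copy number was not measured on these arrays.

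Against other zinc finger genes, ZNF852 stood apart in LA minus Ctrl. Of 528 tested genes outside the row whose symbols start with ZNF, ZKSCAN, ZSCAN or ZFP, 0 had a higher difference than ZNF852. Their differences ran from -1.54 in ZNF532 to 1.34 in ZNF718, with a median of -0.01, and 8 were above 1 and 4 below -1. Of them 6 were higher and 7 lower by limma, which is 2.46% against the 3.2% of all genes. In SA minus Ctrl they ran from -2.79 to 1.48 with a median of 0.02, and 499 of the 528 lay above ZNF852. That place holds for the brightest probe set of ZNF852 alone, at -0.71, since the next brightest gave 0.14. In LA minus SA the highest was ZNF572 at 3.07, against 4.96 for ZNF852. ZNF852 was chosen on this difference, so its place among them is a description.

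The proteins that KRAB zinc fingers work through were described by a list of 25 corepressor and heterochromatin genes, of which 22 were tested. In LA minus Ctrl 1 of them was lower and 0 higher, which is 4.55% and near the 3.2% of all genes. It was DNMT3B, a DNA methyltransferase, at 9.05 and 9.58 in Ctrl, 8.22 and 7.41 in SA and 7.21 and 7.34 in LA. It fell by 2.04 ± 0.31 in LA (limma adjusted p = 0.0289), and the call was lost without Ctrl replicate 2 (adjusted p = 0.079), LA replicate 1 (0.11) or LA replicate 2 (0.0763). TRIM28, the KRAB corepressor, read 12.26 and 12.27 in Ctrl, 11.23 and 10.93 in SA and 11.57 and 12.00 in LA. Its LA minus Ctrl was -0.48 ± 0.20 (limma adjusted p = 0.247). SETDB1 was at 13.51 ± 0.15 in Ctrl, 13.69 ± 0.07 in SA and 13.83 ± 0.24 in LA (mean log2 value ± SD, n = 2), and LA minus Ctrl was 0.32 ± 0.17 (limma adjusted p = 0.376).

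In SA minus Ctrl, 8 of the 22 corepressor genes were lower and 1 was higher, against 14.8% of all genes called, and the list's median was -0.63 against -0.04. With replicate number as a block 4 were lower and 0 higher, against 6.39% of all genes called. These shares are of unlike sets, since the list holds protein-coding genes and all genes include others. Of the protein-coding genes of chromosome 3, 21.4% were called in SA minus Ctrl and 30.7% in LA minus SA, against 40.9% of the list in each. DNMT3B fell by 1.5 ± 0.31, UHRF1, which links DNA methylation to replication, by 1.21 ± 0.18, TRIM28 by 1.19 ± 0.20, the chromatin remodeller CHD4 by 1.12 ± 0.23 and the deacetylase HDAC1 by 1.05 ± 0.14. EHMT1, a histone methyltransferase, fell by 0.99 ± 0.16. CHD4 and EHMT1 lost their calls with the block (adjusted p = 0.0552 and 0.0524). ATF7IP2, a partner of SETDB1, was the 1 that rose, by 0.86 ± 0.16, and it too lost its call with the block (adjusted p = 0.0765). With 1 array left out, HDAC1 and UHRF1 were called each time. DNMT3B lost its call without Ctrl replicate 2 or SA replicate 2, TRIM28 without either Ctrl array or SA replicate 2, EHMT1 without either Ctrl array or SA replicate 2, and CHD4 without Ctrl replicate 2 or SA replicate 1. ATF7IP2 lost it without any 1 of the Ctrl or SA arrays. In LA minus SA 8 were higher and 1 lower, against 15.9% of all genes called, and 3 and 0 with the block, against 8.65%. They were led by DNMT3A at 1.61 ± 0.28 and HDAC1 at 1.55 ± 0.14. DNMT3A lost its call without LA replicate 2, at 1.36 (adjusted p = 0.0568).

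Imprinted genes, on which ZNF445 is known to act, were described by a list of 34, of which 27 had a probe set of their own and 19 were tested. In LA minus Ctrl 0 were called by limma at an adjusted p under 0.05, 4 had an unadjusted p under 0.05, and the median was -0.05. Over all genes 3.2% were called and 20% had an unadjusted p under 0.05, so both counts are near the background. In SA minus Ctrl 1 was called, against 14.8% of all genes. It was SGCE, which was higher by 0.65 ± 0.13 (limma adjusted p = 0.0276). In LA minus SA 3 were lower, which is 15.8% against 15.9% of all genes, INPP5F at -1.01 ± 0.23, CDKN1C at -0.59 ± 0.15 and BLCAP at -0.54 ± 0.14. With replicate number as a block 0 of these 4 calls were left, with adjusted p from 0.0669 (INPP5F) to 0.218 (BLCAP). SGCE, CDKN1C and BLCAP also lost their calls without any 1 of the 6 arrays, and INPP5F without SA replicate 2 or either LA array.

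None of the 10 genes nearest to ZNF852 in centred profile belongs to the row. Nearness was measured as the distance between log2 profiles over the 6 arrays, each centred on its own mean. The profiles were not scaled, so the distance takes in the size of the differences as well as the order of the groups. The tested neighbours reached at most 0.91 in LA minus Ctrl and could not come near, so their places do not compare the order of their groups. The nearest was SYCP3 of chromosome 12, a protein of the synaptonemal complex of meiosis, at a distance of 0.68. It read 4.60 and 4.63 in Ctrl, 4.31 and 4.60 in SA and 9.56 and 9.11 in LA. The second was IDH2, the mitochondrial isocitrate dehydrogenase, at 1.12. It read 8.08 and 7.68 in Ctrl, 6.72 and 6.53 in SA and 11.04 and 11.67 in LA. Both were highest on the LA arrays, and IDH2 was lower in SA than in Ctrl.

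The next 8 were at distances from 1.43 to 1.90. They were OSBPL6, a lipid transfer protein, the immune receptor CD96, the fatty acid elongase ELOVL6, the vitamin D receptor VDR, the pseudogene ZBED10P, NMRK1, a nicotinamide riboside kinase, the lipid phosphatase PLPP3 and the carboxypeptidase CPE. Of the 10 genes CD96 alone lies on chromosome 3, with 3.98 and 3.23 in Ctrl, 3.08 and 3.05 in SA and 6.64 and 7.38 in LA. LA minus Ctrl over the 10 ran from 2.70 in CPE to 4.72 in SYCP3. Within the row, ZNF445 came 295th in this order at 4.01 and ZKSCAN7 1953rd at 4.81, and ZNF35, ZNF660 and ZNF501 came 4890th, 10453rd and 14243rd. Of the flanking genes, KIF15 came 101st at 3.38 and TCAIM 127th at 3.52. With 6 arrays in 3 groups many genes share such a shape, so the order describes these arrays alone.

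**Figure D4:**
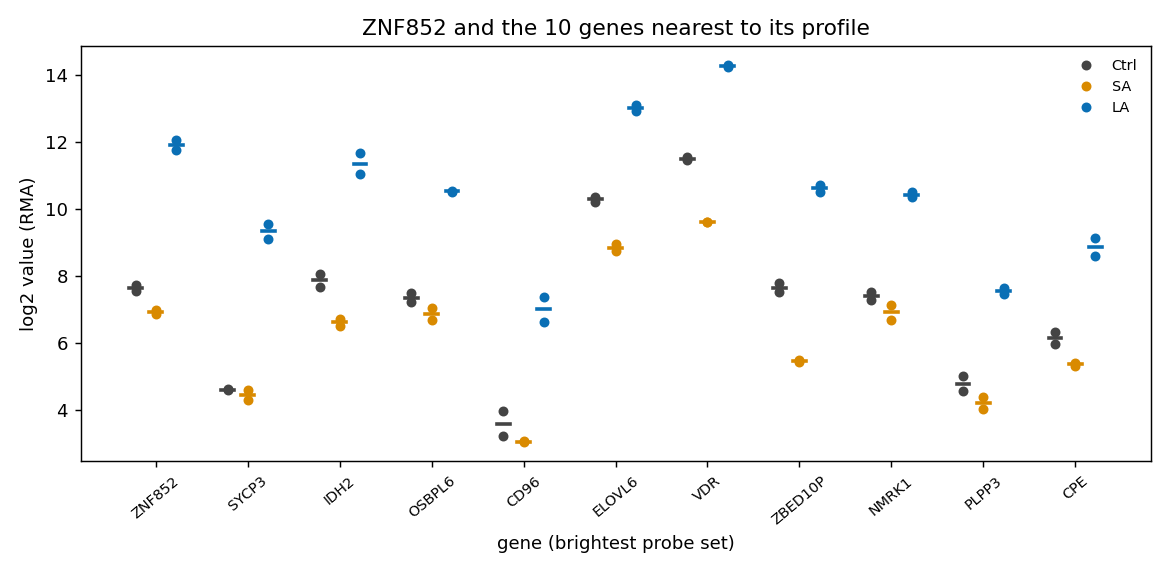
Log2 RMA value (y axis) of ZNF852 and of the 10 genes whose centred profile over the 6 arrays was nearest to it (x axis, nearest first). Points are arrays and short lines are group means of 2 arrays. In each gene the LA points lie highest, and the gap between Ctrl and SA widens in ELOVL6, VDR and ZBED10P.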

How the data were processed

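The authors' deposited table holds log2 values per probe set, made with RMA and the Transcriptome Analysis Console per the submitters' processing notes, without versions; the notes and files name no log base, RMA variant or genome build. Values ran from 1.93 to 20.02. Probe sets with 1 gene symbol (36176 of 135574) were joined to current symbols by gene ID (25516 of 25555 matched). The brightest probe set stood for a gene, and genes with a mean at or above 3.77 were tested (21070) in R 4.3.3 with limma 3.58.1 on all 6 arrays. Calls used a Benjamini-Hochberg adjusted p under 0.05. The arrays set the precision: a permutation of 2 against 2 cannot go below 0.333, so single genes were tested with limma alone. Within groups, 1.18% of the sum of squares went with replicate number, against 33.3% of the degrees of freedom, so p-values and errors without a block tend to be too small. Deviations of same-numbered arrays correlated at -0.413 to -0.565. With so little variation left to replicate number these correlations are negative by construction, so they cannot show whether the numbers pair the arrays, and the numbers were used as a block only as an alternative. On simulated data with 200 of 21070 genes changed by 3 (log2) in LA, the fit called 193 of them and 10 others in LA minus Ctrl. The simulated noise was independent between arrays, without the low share of replicate number seen here. Its count of false calls therefore does not carry over to these data. A change of 3 is also larger than any difference of the neighbours. Neighbour order came from the gene table of GRCh38.p14, and promoter sequences from RefSeq. Named genes were the 8 members, flanking genes called, called genes of both lists up to 6 per comparison, and the 10 genes of nearest profile; ABHD5, SETDB1, ATF7IP2 and the extremes among zinc finger genes were named after their values were seen. The members and lists were chosen with earlier results of these data known.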

Additional observations from a re-analysis of the deposited data

Results flagged for a closer look

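In LA minus SA, 7 genes of the row and its flanks were flagged, and 1 of them, ZNF852, was chosen for its high LA level. The test of that difference passed for 1 of the 5 neighbours tested, ZNF445 (1.46), and for 5 of the 13 flanking genes tested. These were TCAIM (1.66), KIF15 (3.36), KIAA1143 (1.03), EXOSC7 (0.79) and SNRK (-0.83). Of all genes 15.9% were called, or 8.65% with replicate number as a block, and of the protein-coding genes of chromosome 3 30.7%. ZNF445 lost its call without SA replicate 1 or LA replicate 1, SNRK without SA replicate 1 or either LA array, KIAA1143 without LA replicate 2, and EXOSC7 without any 1 of the SA or LA arrays; TCAIM and KIF15 were called with each of the 6 arrays left out. With replicate number as a block SNRK and EXOSC7 were no longer called, at adjusted p = 0.0651 and 0.0792 by limma. On the brightest probe set of ZNF852 both SA arrays lay below and both LA arrays above the Ctrl arrays, with LA minus SA at 4.96. The order of SA and Ctrl did not hold across its probe sets. The LA minus SA difference of ZNF852 was not tested, since the gene was chosen on it.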

How the results depend on the processing

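The difference of ZNF852 kept its sign under all 14 alternatives. It ran from 3.84 to 4.41 in LA minus Ctrl and from 4.10 to 5.11 in LA minus SA. In SA minus Ctrl it ran from -0.80 to -0.26. The end values 3.84, 4.10 and -0.26 came from averaging its probe sets. The other alternatives all used its brightest probe set, and SA minus Ctrl was 0.14 on the next brightest. TCAIM was called in LA minus Ctrl under all 14, at adjusted p from 0.00443 to 0.0374. No neighbour was called in LA minus Ctrl or SA minus Ctrl under any alternative. In LA minus SA the count of neighbours was 0 to 1 with an array left out; ZNF445 fell short without SA replicate 1 and LA replicate 1. Replicate number as a block left 1347 calls in place of 3113 in SA minus Ctrl, 279 in place of 675 in LA minus Ctrl and 1823 in place of 3360 in LA minus SA. It left 4 corepressor genes in place of 9 in SA minus Ctrl and 3 in place of 9 in LA minus SA, and 0 imprinted genes in each. With an array left out, calls over all genes ran from 1134 to 2486, 195 to 674 and 1503 to 2931 in these comparisons, corepressor calls from 2 to 9, 0 to 1 and 1 to 8, and imprinted calls were 0, 0 and 0 to 1. SA minus Ctrl held 2 imprinted calls in place of 1 with the stricter filter, a common median, quantile normalization again or a trend, and LA minus SA held 1 in place of 3 with no filter or a trend. Some differences that were not called changed sign with an array left out. In SA minus Ctrl, ZNF35 ran from -0.47 to 0.16 (0.10 without SA replicate 2), ZNF501 from -0.32 to 0.15 and TCAIM from -0.16 to 0.01 (0.00 after quantile normalization again). In LA minus Ctrl, ZNF35 ran from -0.18 to 0.45 (-0.08 without LA replicate 1) and ZNF501 from -0.44 to 0.03. In LA minus SA, ZNF660 ran from -0.02 to 0.13 and ZNF501 from -0.32 to 0.08 (0.04 on TC probe sets). The TC-only setting was chosen after seeing the data. The causes were not tested. Neighbours near the array median have little signal over background, which limits what they can show.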
